A study of Mus musculus with 8 samples.

Results

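The Ifitm genes and Bst2 were followed in hematopoietic stem cells of mice given G-CSF, a cytokine under which marrow makes more neutrophils, or PBS. The set holds 6 of the 19938 genes measured by probe sets with a single gene symbol, namely Ifitm1, Ifitm2, Ifitm3, Ifitm5, Ifitm6 and Bst2, picked by name as a family. The probe set of each gene was chosen by intensity alone, as the one with the highest mean log2 value when both groups were averaged (8 arrays). The G-CSF group (4 arrays) was labelled as treated for 36 h, with G-CSF at 125 mcg per kg given under the skin 2 times a day, and the PBS group (4 arrays) received PBS for the same time. Both groups were the same sorted marrow cell, KSL SLAM cells, which lack lineage markers, CD48 and CD41 and carry c-Kit, Sca-1 and CD150. Each array held RNA pooled from 5 to 10 mice, so differences between single mice were not seen, and the labels name neither strain nor age. RNA was amplified and hybridized to MoGene 1.0 ST arrays, and all levels below are log2 intensities.

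IFITM proteins are small membrane proteins that hinder the fusion of viruses with cell membranes, and most of their genes are induced by interferon. Bst2, or tetherin, holds budding virus particles on the cell surface and is an antigen of plasmacytoid dendritic cells in mice. Stem cells are known to express several interferon-stimulated genes, among them Ifitm genes, without infection. Interferon acts on its targets largely through the interferon-stimulated response element (ISRE), and STAT dimers, including the STAT3 dimers that form below the G-CSF receptor, bind the GAS element.

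The start regions of the members were searched on both strands for the ISRE core, written as GAAA, any 2 bases and GAAA again, and for the GAS element TTCNNNGAA, in RefSeq windows of 250 bases before to 50 bases after the annotated start (GRCm38.p6). All 6 members had a window. The stretches shown set the 3 genes whose G-CSF and PBS values did not overlap (Ifitm1, Ifitm2 and Ifitm6) beside Ifitm3 and Bst2, whose values did. Capitals mark ISRE and GAS matches, and positions count from the start, with the first transcribed base as 1. The 150 bases before the start are given for Ifitm1 (chr7:140967926-140968075, plus strand), Ifitm2 (chr7:140955962-140956111, minus strand), Ifitm6 (chr7:141016893-141017042, minus strand) and Bst2 (chr8:71537473-71537622, minus strand), and for Ifitm3 the 27 bases that span its matches (chr7:141010716-141010742, minus strand).
Ifitm1: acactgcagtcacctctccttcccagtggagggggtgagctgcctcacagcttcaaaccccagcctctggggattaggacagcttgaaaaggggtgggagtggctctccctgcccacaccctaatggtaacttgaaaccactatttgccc
Ifitm2: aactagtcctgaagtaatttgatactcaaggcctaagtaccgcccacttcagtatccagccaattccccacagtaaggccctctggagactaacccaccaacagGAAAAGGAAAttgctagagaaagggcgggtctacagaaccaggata
Ifitm6: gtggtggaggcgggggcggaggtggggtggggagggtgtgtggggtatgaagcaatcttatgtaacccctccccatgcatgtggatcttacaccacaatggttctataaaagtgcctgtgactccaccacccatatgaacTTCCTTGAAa
Bst2: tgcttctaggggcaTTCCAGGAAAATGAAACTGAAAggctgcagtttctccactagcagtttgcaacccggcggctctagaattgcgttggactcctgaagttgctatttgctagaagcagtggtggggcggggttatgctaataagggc
Ifitm3: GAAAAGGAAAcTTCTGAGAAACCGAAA
Ifitm2 held 1 ISRE match, from -46 to -37. Bst2 held 2 ISRE matches that overlap each other, the first of which also overlaps a GAS match from -136 to -128. Ifitm3 held 2 ISRE matches and, between them, a GAS match that overlaps the second, all just after the start. Ifitm6 held a GAS match from -10 to -2. These letters were not found in the windows of Ifitm1 and Ifitm5. ISRE matches thus occurred in 3 of 6 member windows, against 3.44% of all 32851 windows, and GAS matches in 3 of 6, against 8.3%. The E-box CACGTG, searched as an unrelated motif, occurred in 0 of 6, against 7.15%. A match is a run of letters and no measure of binding.

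The other arrays and cells set the frame for these values. PBS replicate 3 differed from the remaining 7 arrays. The interquartile range of its log2 values was 1.68, against 2.42 to 2.80 in the others, and it correlated with them at 0.883 to 0.903, whereas they correlated with each other at 0.956 to 0.977. Of 15 stem cell markers 14 were measured, with an array mean of 8.12 to 8.33 after G-CSF and 7.68 to 8.47 after PBS. Kit, the receptor used in the sort, had 10.24 to 10.49 after G-CSF and 10.45 to 10.94 after PBS. Slamf1, which encodes CD150, had 6.05 to 7.16 after G-CSF and 5.94 to 7.24 after PBS. Of the genes of the negative gates, Cd48 had 7.24 to 8.95 after G-CSF and 6.66 to 7.57 after PBS, a log2 difference of 0.64 ± 0.36 SE (limma adjusted p = 0.578), and Itga2b, which encodes CD41, had 7.18 to 7.74 after G-CSF and 7.06 to 7.72 after PBS. No detection call was used here, so the absence of a marker could not be called. The 19 neutrophil markers had an array mean of 10.38, 10.20, 8.32 and 9.0 in G-CSF replicates 1 to 4, against 8.30, 7.27, 7.42 and 7.20 in PBS replicates 1 to 4.

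All 6 members had a higher mean after G-CSF, with a median log2 difference of 0.80, against -0.07 over all genes, 41.7% of which had a positive difference. Without PBS replicate 3 the median was 0.69, against -0.02 over all genes, and the difference of Bst2 was -0.12. Ifitm6 had the highest difference of the 6, Ifitm1 and Ifitm2 were about 2.06-fold and 2.25-fold higher, and Ifitm5, Ifitm3 and Bst2 differed by less than 0.6 on the log2 scale. The values of Ifitm1, Ifitm2 and Ifitm6 were above all PBS values in every G-CSF array, where 3.37% of all genes showed the same and 2.78% the opposite order. Without PBS replicate 3 the count was again 3. Leaving out an array could not lower it, because separated groups stay separated, and no further member became separated. In the fit across all genes 0 of the 6 members passed an adjusted p of 0.05 (limma, Benjamini-Hochberg over 19938 genes), where 0.0953% of all genes passed as higher and 0% as lower. At an unadjusted p under 0.05 there were 4 members, all higher, against 6.07% of all genes. The family was chosen with earlier results of this comparison known, so these counts describe the members and support nothing further.

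**Figure D1:**
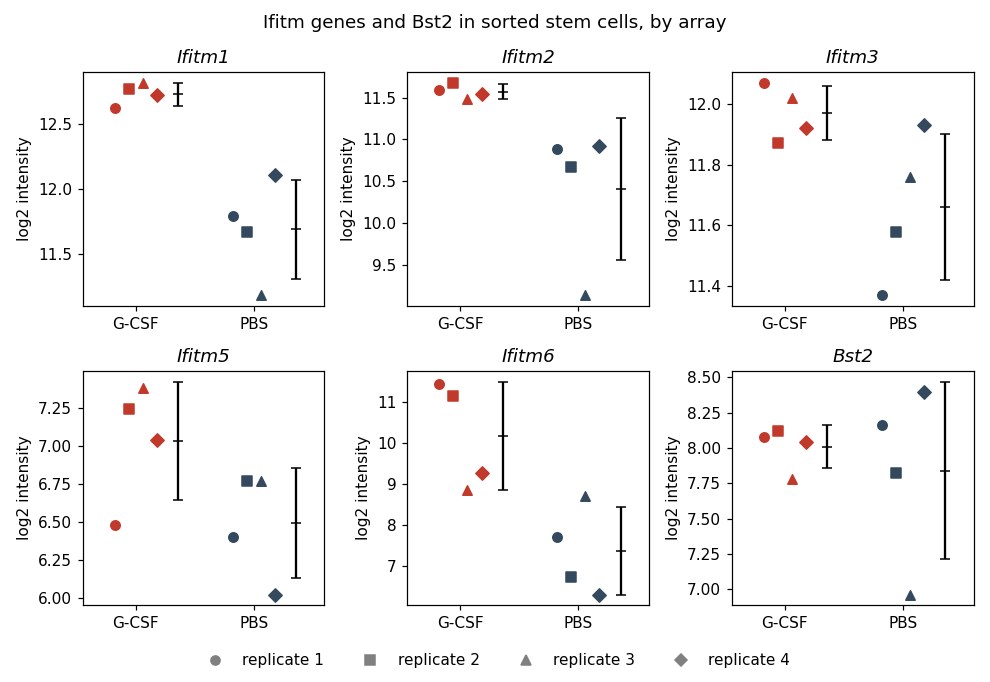
Log2 intensity (vertical axis, a separate scale per gene) of the 6 genes in G-CSF and PBS arrays, with 1 symbol per replicate, and the mean and SD of the 4 arrays of each group as a bar. The G-CSF values of Ifitm1, Ifitm2 and Ifitm6 lie above all their PBS values, and PBS replicate 3 is the lowest array for Ifitm1, Ifitm2 and Bst2 but the highest PBS array for Ifitm6.

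Ifitm1, whose human counterpart sits mostly at the cell surface, had 12.62, 12.77, 12.82 and 12.72 in G-CSF replicates 1 to 4, against 11.79, 11.67, 11.18 and 12.11 in PBS replicates 1 to 4. The G-CSF arrays were tightly grouped (12.73 ± 0.09, SD, n = 4) and the PBS arrays wider (11.69 ± 0.38, SD, n = 4). The groups did not overlap. The log2 difference was 1.05 ± 0.20 SE, with a 95% interval of 0.60 to 1.5 (limma adjusted p = 0.118). Ifitm1 thus had the lowest adjusted p of the 6 members without passing. Without PBS replicate 3 the difference was 0.88, and with the arrays weighted by their quality it was 0.89 (limma adjusted p = 0.0504).

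A second Ifitm1 probe set, with a mean of 11.95 over all arrays against 12.21 for the one kept, separated the groups as well. It read 12.29, 12.38, 12.49 and 12.35 in G-CSF replicates 1 to 4, against 11.44, 11.27, 11.67 and 11.76 in PBS replicates 1 to 4. The probe sets disagreed on PBS replicate 3, which was the lowest PBS array in the first and the second highest in this one. The difference by the second probe set was 0.84.

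Ifitm2, whose human counterpart acts mainly in endosomes, had 11.59, 11.68, 11.48 and 11.54 in G-CSF replicates 1 to 4, against 10.88, 10.67, 9.13 and 10.92 in PBS replicates 1 to 4. The G-CSF arrays again lay close together and above every PBS array, and PBS replicate 3 lay far below the other PBS arrays. The log2 difference was 1.17 ± 0.35 SE, with a 95% interval of 0.41 to 1.94 (limma adjusted p = 0.352). Without PBS replicate 3 it was 0.75 (limma adjusted p = 0.111), over 1.5 times smaller.

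Ifitm2 had 3 probe sets with the same annotation. Their means over all arrays were 10.99, 10.92 and 10.84, and their differences were 1.17, 0.97 and 0.86. All 3 gave their lowest value in PBS replicate 3, at 9.13, 9.12 and 9.21. Probe sequences were not used here, so cross-hybridization between related Ifitm transcripts was not tested.

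Ifitm3, the member best known in mice for restricting influenza virus, had 12.07, 11.87, 12.02 and 11.92 in G-CSF replicates 1 to 4, against 11.37, 11.58, 11.76 and 11.93 in PBS replicates 1 to 4. The groups overlapped, since PBS replicate 4 lay above 2 of the G-CSF arrays. The log2 difference was 0.31 ± 0.17 SE, and its 95% interval of -0.07 to 0.69 included no difference (limma adjusted p = 0.578). Its values spanned 0.70 over all arrays, the narrowest range of the members, and PBS replicate 3 was not low.

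Ifitm6, known in mice from macrophages and other myeloid cells, had the widest range of the members, 5.15 over the 8 arrays. It had 11.44, 11.15, 8.84 and 9.26 in G-CSF replicates 1 to 4, against 7.70, 6.73, 8.70 and 6.29 in PBS replicates 1 to 4. G-CSF replicates 1 and 2 stood well above replicates 3 and 4, and the gap between the lowest G-CSF array and PBS replicate 3 was small. The log2 difference was 2.81 ± 0.64 SE, or 7.03-fold, with a 95% interval of 1.40 to 4.23 (limma adjusted p = 0.208). It was 3.26 without PBS replicate 3 and 2.39 without G-CSF replicate 1.

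The 2 arrays highest in Ifitm6 were also the 2 highest in neutrophil markers. G-CSF replicates 1 and 2 had the 2 highest means of the 19 markers, 10.38 and 10.20, and the remaining arrays lay between 7.20 and 9.0. Among the remaining arrays the orders differed. PBS replicate 3 had 8.70 for Ifitm6 at a marker mean of 7.42, and PBS replicate 1 had 7.70 at 8.30. All 19 markers had a positive difference, with a median of 1.82, of which 17 had an unadjusted p under 0.05 (background 6.07%) and 0 passed over all genes. The G-CSF values lay above all PBS values for 9 of the 19 (background 3.37%). Of 14 monocyte and macrophage markers 13 were measured, with a median difference of 0.49, and 0.10 without PBS replicate 3. Of these 13, 5 had an unadjusted p under 0.05 and were higher (background 6.07%). The array mean of all 13 was 6.93 to 8.07 after G-CSF and 6.50 to 7.92 after PBS. With the neutrophil marker mean of each array as a covariate, an alternative chosen after seeing the data, the difference was 0.48 ± 0.74 SE for Ifitm6 and 1.14 ± 0.38 SE for Ifitm1 (limma adjusted p = 0.999 and 0.926), and 0 genes passed in that fit. The covariate was itself higher after G-CSF, so marker level and treatment cannot be told apart in it. In these pooled samples a larger share of a cell type and more RNA per cell cannot be told apart either.

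**Figure D2:**
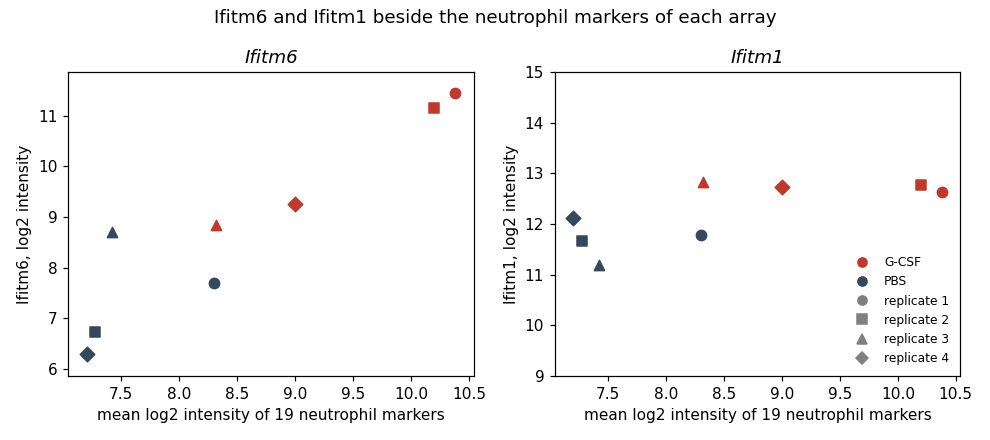
Log2 intensity of Ifitm6 and Ifitm1 (vertical axes, both spanning the same number of log2 units) against the mean log2 intensity of 19 neutrophil markers in each of the 8 arrays, with colour for group and symbol for replicate. Ifitm6 is highest, at 11.44 and 11.15, in the 2 G-CSF arrays with the highest marker means. PBS replicate 3 has 8.70 for Ifitm6 at a marker mean of 7.42, and PBS replicate 1 has 7.70 at 8.30. The 4 G-CSF values of Ifitm1 stay between 12.62 and 12.82 over marker means of 8.32 to 10.38.

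Ifitm5, known as BRIL in osteoblasts and not induced by interferon, had 6.48, 7.24, 7.38 and 7.04 in G-CSF replicates 1 to 4, against 6.40, 6.77, 6.77 and 6.02 in PBS replicates 1 to 4. The groups overlapped through G-CSF replicate 1. The log2 difference was 0.54 ± 0.24 SE, with a 95% interval of 0.01 to 1.08 (limma adjusted p = 0.547). Of 10 osteoblast markers 6 were measured, and their median difference was -0.26, and -0.08 without PBS replicate 3, with an array mean of 5.18 to 5.50 after G-CSF and 5.36 to 6.05 after PBS.

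Bst2 had 8.08, 8.12, 7.78 and 8.04 in G-CSF replicates 1 to 4, against 8.16, 7.82, 6.96 and 8.40 in PBS replicates 1 to 4. The G-CSF values lay inside the range of the PBS values. The log2 difference was 0.17 ± 0.28 SE, with a 95% interval of -0.44 to 0.79 (limma adjusted p = 0.795), and its sign turned to -0.12 without PBS replicate 3. Of 11 markers of plasmacytoid dendritic cells 9 were measured. Their array mean was 6.04 to 6.21 after G-CSF and 5.92 to 6.41 after PBS, with a median difference of -0.21, and -0.08 without PBS replicate 3. The differences of the 9 ran from -0.36 to 0.52, and 3 were positive. The lowest was that of Siglech, a defining surface lectin of these cells, with -0.36 ± 0.19 SE (limma adjusted p = 0.577). Siglech values lay between 4.81 and 5.78, below the median of 5.82 over all genes and arrays, and were highest in PBS replicate 3.

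The 5 Ifitm members lie side by side on chromosome 7, in the order Ifitm5, Ifitm2, Ifitm1, Ifitm3 and Ifitm6, and Bst2 lies on chromosome 8. The 3 protein-coding genes on either side had differences between -0.16 and 0.49, all with overlapping groups. On the side of Ifitm5 these were Pgghg, a glucosidase of hydroxylysine-linked sugars, with 0.49 ± 0.31 SE, the inflammasome receptor Nlrp6 with -0.10 ± 0.19 SE, and the cytochrome oxidase subunit Cox8b with -0.16 ± 0.16 SE. On the side of Ifitm6 they were the glycosyltransferase B4galnt4 with -0.12 ± 0.27 SE, the desmosome protein Pkp3 with 0.12 ± 0.17 SE, and Sigirr, an inhibitor of interleukin-1 receptor signalling, with 0.15 ± 0.16 SE. The difference therefore varied within the cluster too, from 0.31 at Ifitm3 to 2.81 at its neighbour Ifitm6.

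**Figure D3:**
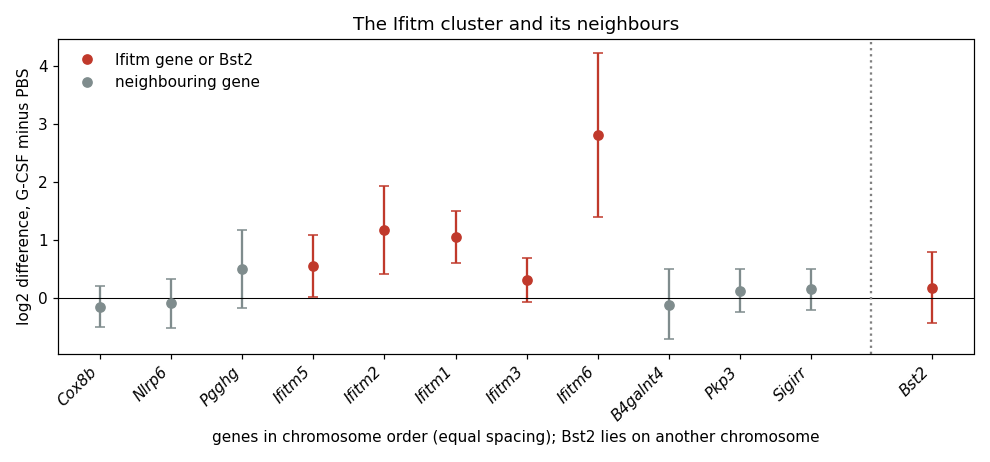
Log2 difference, G-CSF minus PBS, with its 95% interval (limma) for the 5 clustered Ifitm genes and 3 protein-coding genes on each side, in chromosome order at equal spacing, and for Bst2 at the right. The intervals of Ifitm2, Ifitm1 and Ifitm6 lie above 0, that of Ifitm5 starts at 0.01, and those of the other genes shown include 0.

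Genes whose profile over the 8 arrays was most like that of a member were sought for the 5 members whose values spanned more than 1, by the root mean square difference between profiles centred on their own means. For Ifitm6 the nearest was Cxcr2, the chemokine receptor of neutrophils (0.47), and then Lilr4b (0.53), Wfdc21 (0.62) and Lilrb4a (0.62). Cxcr2 and Lilrb4a were also on the marker and partner lists described here. For Ifitm1 the nearest were the autophagy protein Map1lc3b (0.14), the lysophospholipid acyltransferase Lpcat2 (0.15), and the mitochondrial proteins Mrpl20 (0.15) and Timm13 (0.15). Lpcat2, which had the largest difference of these 4 genes, averaged 7.45 ± 0.13 after G-CSF and 6.22 ± 0.37 after PBS (SD, n = 4 each).

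For Ifitm2 the nearest were Cpne3, a calcium-dependent phospholipid-binding protein (0.12), Alox5ap, the activator of leukotriene synthesis (0.15), Sh3bgrl3 (0.15) and the histone methyltransferase subunit Dpy30 (0.15). PBS replicate 3 was their lowest array as well, at 6.54 for Cpne3, 8.66 for Alox5ap, 8.75 for Sh3bgrl3 and 6.43 for Dpy30. For Bst2 they were the adenylate cyclase Adcy7 (0.05), Aup1 (0.11), Fam76a (0.12) and Ube2z (0.12). PBS replicate 3 was also the lowest array of these genes, at 7.08, 8.05, 5.54 and 6.57, and of the 4 genes nearest to Ifitm1. How far these matches rest on that array was not tested. For Ifitm5 the nearest were the mitochondrial phosphatase Ptpmt1 (0.12), Tmem53 (0.18), Smg8 (0.18) and Man1b1 (0.19). No Ifitm gene was among the 4 nearest of another.

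Genes upstream of interferon-stimulated transcription were set beside the members. Of 13 receptor chains and signal transducers 12 were measured, with a median difference of 0.44, against -0.07 over all genes, and 0.21 without PBS replicate 3, against -0.02 over all genes. None passed over all genes in limma. At an unadjusted p under 0.05 there were 5, all higher (background 6.07%), and the groups did not overlap for 4, namely Ifnar1, Ifnar2, Ifngr2 and Stat3 (background 3.37%). Ifnar1, a chain of the type I interferon receptor, had 8.21, 8.04, 7.89 and 8.08 in G-CSF replicates 1 to 4, against 7.63, 7.52, 7.45 and 7.67 in PBS replicates 1 to 4. Both groups of Ifnar1 were narrow and separate, with a log2 difference of 0.49 ± 0.16 SE (limma adjusted p = 0.393). Ifnar2, its partner, had 9.53 to 9.66 after G-CSF and 7.72 to 9.35 after PBS, and Ifngr2, a chain of the interferon gamma receptor, had 8.01 to 8.49 after G-CSF and 5.62 to 7.73 after PBS. Their differences of 0.96 and 1.37 were 0.66 and 0.95 without PBS replicate 3, their lowest array. Stat3 had 9.04 to 9.19 after G-CSF and 7.51 to 8.83 after PBS, a difference of 0.73 ± 0.26 SE (limma adjusted p = 0.461). It was 0.44 without PBS replicate 3, the lowest array of Stat3 as well.

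The ligands and regulatory factors had median differences smaller in size than the 0.44 of the receptor chains and signal transducers. Single genes overlapped in size, with -0.90 for Ifna2 and 0.50 for Irf1, against 0.49 for Ifnar1. Irf1 had 7.51 to 8.10 after G-CSF, against 7.71, 7.74, 5.98 and 7.70 in PBS replicates 1 to 4. Only PBS replicate 3 lay below the G-CSF range of Irf1, whereas Ifnar1 kept a difference of 0.45 without that array. All 16 measured interferon ligand genes of 20 had a negative difference, where 41.7% of all genes had a positive one, and 0 passed in limma. Their median was -0.25, and -0.15 without PBS replicate 3. Their array mean was 4.53 to 4.89 after G-CSF and 4.86 to 5.14 after PBS. Both ranges lay below 5.82, the median log2 value over all genes and arrays, and the share of 41.7% was not matched for intensity. The ligand differences ran from -0.90 to -0.02, and PBS replicate 3 had the highest array mean, 5.14. Signs of single ligands without that array were not counted. Many of these ligand genes are near-identical copies, and whether their probe sets tell them apart was not tested. At an unadjusted p under 0.05 the 1 lower ligand was Ifna2 (background 2.94%), with 5.32 to 5.79 after G-CSF and 5.66 to 7.02 after PBS. Of 8 interferon regulatory factors 7 were measured, with a median difference of 0.32, and 0.07 without PBS replicate 3. Irf3, which induces interferon genes after sensing of nucleic acids, had 7.44 to 7.88 after G-CSF and 7.17 to 7.43 after PBS, a difference of 0.37 ± 0.17 SE (limma adjusted p = 0.546). Irf8, a factor of monocytes and dendritic cells, had 0.35 ± 0.23 SE and Irf4, a factor of lymphocytes, -0.48 ± 0.25 SE.

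The other interferon-stimulated genes were spread around 0. Of 60 listed genes 51 were measured, 26 with a positive difference, and the median was 0.01 with all arrays and -0.02 without PBS replicate 3. None passed in limma, 2 had an unadjusted p under 0.05 and were higher (background 6.07%), and the groups overlapped for all 51. Ifi35, an interferon-induced leucine zipper protein, had 0.52 ± 0.21 SE and Cd274, the checkpoint ligand PD-L1, 0.62 ± 0.25 SE. Usp18, which removes ISG15 from proteins and restrains interferon signalling, had 5.46, 5.64, 5.58 and 6.38 in G-CSF replicates 1 to 4, against 5.90, 6.62, 6.02 and 7.30 in PBS replicates 1 to 4. These Usp18 values overlapped, with a difference of -0.69 ± 0.32 SE (limma adjusted p = 0.551). The differences of the 51 genes ran from -0.69 to 0.77, with the highest at the GTPase Gbp5, and those of Ifitm1, Ifitm2 and Ifitm6 lay above that range.

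**Figure D4:**
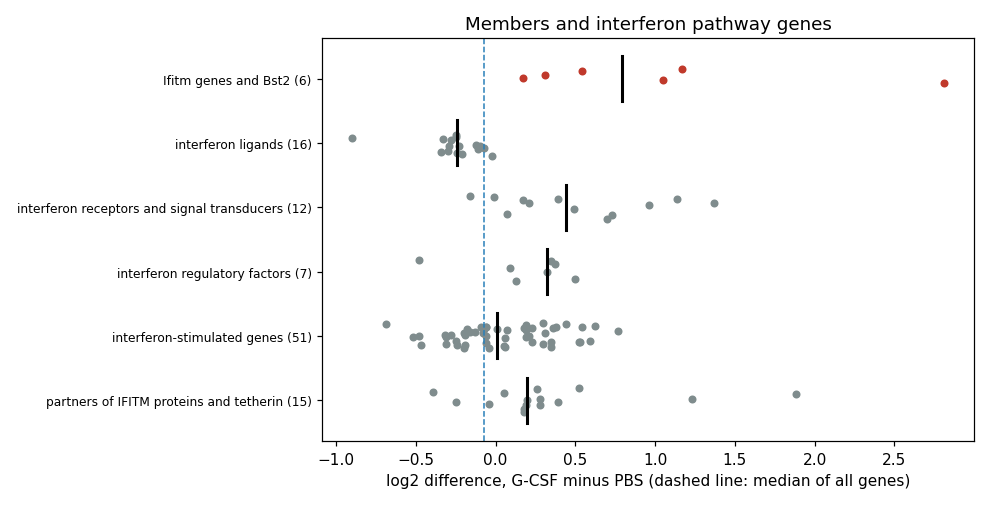
Log2 difference, G-CSF minus PBS (horizontal axis), of the 6 Ifitm family and Bst2 genes and of the measured genes of 5 lists, with 1 point per gene, a vertical bar at each list's median and a dashed line at -0.07, the median of all genes. The members have a median of 0.80 and the 51 interferon-stimulated genes a median of 0.01. Without PBS replicate 3 these medians are 0.69 and -0.02.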

How the data were processed

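The authors deposited linear-scale intensities, 1 for each probe set on each array. RMA is named in the submitters' processing notes, and the sources used here do not give its software, version or options. Deposited intensities ran from 2.15 to 16163, with array medians of 47.0 to 54.8, and log2 was taken before the tests. Of 35556 probe sets, 21789 carried 1 symbol in the platform annotation, 1621 several and 12146 none. Single-symbol probe sets were used, and for 999 genes with several the brightest was kept, leaving 19938 genes with no filter on dim ones.

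G-CSF arrays were set against PBS arrays using limma 3.58.1 under R 4.3.3 (linear model, empirical Bayes, 2-sided, Benjamini-Hochberg over all genes, threshold 0.05), tested on simulated data. The design text calls the 4 samples of a group independent. The number of arrays limits the precision. The members, gene lists and alternatives were chosen with earlier results of these data known. Named genes are the members, up to 3 list genes with the lowest p, the 4 nearest profiles and 3 neighbours on each side. Predicted genes, accession-like names, receptor segments, snoRNAs, microRNAs and histones were passed over among nearest profiles. Siglech, Gbp5, Cd48, Irf1 and the genes whose groups did not overlap were named after their values were seen. Start regions and gene order came from RefSeq (GRCm38.p6). Alternatives changed the probe set, moderation, normalization, weights, filter, block and arrays used.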

Additional observations from a re-analysis of the deposited data

Results flagged for a closer look

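The outlier check covered 102 groups of 4 arrays. They came from the members and their other probe sets, the nearest profiles, the chromosomal neighbours and up to 3 genes per pathway list. Kit, Slamf1, Cd48, Itga2b, Siglech, Stat3, Irf1 and Gbp5 were not checked. Of the 102 groups, 3 held an array whose gap to its nearest neighbour took a share of the group's range above Dixon's 95% critical value, where chance gives about 1 in 20. Ifitm2 in PBS replicate 3 was 9.13, against 10.67 to 10.92 in the other PBS arrays. Ube2z in PBS replicate 3 was 6.57, against 7.53 to 7.70. Fam76a in G-CSF replicate 3 was 6.21, against 6.42 to 6.46 in the other G-CSF arrays.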

How the results depend on the processing

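Ifitm1, Ifitm2, Ifitm3, Ifitm5 and Ifitm6 kept a positive difference under all 19 alternatives (18 planned, 1 chosen after seeing the data), and 0 members passed the threshold in any of them. Some alternatives could not move the difference. Those that changed only the moderation, the replicate block or the set of genes or probe sets tested used the same values for each member. Those that changed the probe set could not move it for Ifitm3, Ifitm5 and Ifitm6, which had no further probe set. The difference ran from 0.73 to 1.19 for Ifitm1, 0.65 to 1.35 for Ifitm2, 0.13 to 0.48 for Ifitm3, 0.34 to 0.95 for Ifitm5 and 0.48 to 3.26 for Ifitm6, and limma adjusted p values from 0.0504 to 0.926 for Ifitm1 and 0.0829 to 0.999 for Ifitm6. Bst2 turned to -0.11 with array weights, -0.02 after quantile normalization, -0.20 after quantile normalization with PBS replicate 3 left out, -0.12 with PBS replicate 3 left out and -0.12 when the neutrophil covariate was added, and its values with 1 array left out ran from -0.12 to 0.36. The cause was not tested. The count of all genes past the threshold, 19, was 0 with all probe sets tested, 40 with array weights, 7 after quantile normalization, 0 with the neutrophil covariate, and 3 (without G-CSF replicate 2) to 31 (without G-CSF replicate 3) with 1 array left out. It was 10 without G-CSF replicate 1 and 7 without G-CSF replicate 4.

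Deviations of same-numbered G-CSF and PBS arrays correlated at -0.03, 0.06, 0.06 and 0.14, so the numbers were not taken to pair the arrays. With the replicate number as a block 23 genes passed, 0 of them members, and Ifitm1 had a difference of 1.05 (limma adjusted p = 0.196).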

Other observations

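Of 17 genes listed as known partners of human IFITM proteins or tetherin, or as relatives of such partners, 15 were measured, with a median log2 difference of 0.20, and -0.03 without PBS replicate 3. None passed in limma, and 2 had an unadjusted p under 0.05 and were higher, against 6.07% of all genes. Lilrb4a, an inhibitory receptor of myeloid cells, had 9.72, 9.43, 6.73 and 7.62 in G-CSF replicates 1 to 4, against 6.45, 6.29, 7.16 and 6.07 in PBS replicates 1 to 4. Pirb, another inhibitory receptor of myeloid and B cells, had 8.68, 8.97, 6.05 and 7.05 in G-CSF replicates 1 to 4, against 6.69, 6.07, 6.48 and 6.58 in PBS replicates 1 to 4. Both were high in G-CSF replicates 1 and 2, as Ifitm6 was, and their groups overlapped. The AAA ATPase Vcp had 0.39 ± 0.24 SE.

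Of the Ifitm genes outside the set, Ifitm7 had a mean of 7.0 ± 0.40 after G-CSF and 6.91 ± 0.20 after PBS, and Ifitm10 5.53 ± 0.19 after G-CSF and 5.92 ± 0.45 after PBS (SD, n = 4 each). Markers of B and plasma cells, of T and NK cells, and of erythroid cells and megakaryocytes had median differences of -0.21, -0.25 and -0.26, with 10, 9 and 8 genes measured. Without PBS replicate 3 these medians were -0.13, -0.07 and -0.35.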
